A study of Mus musculus with 9 samples.

Results

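The comparison described here is the second day of a short embryonic series of mouse brown adipose tissue (BAT), the fat depot that makes heat. It sets 3 arrays labelled E16.5 (E for embryonic day) against 3 arrays labelled E15.5, which are 6 of the 9 arrays of the series, and it covers all 30915 entries of the expression table. Arrays were assigned by the stage in their labels, and the other 3 arrays, of E14.5, entered the same fit and give the first day (E15.5 against E14.5) for reference. All embryos were wild-type C57Bl6J mice without treatment, and each array held an independent preparation that pooled the BAT of 3 embryos. The groups therefore differ by 1 day of gestation, not by genotype or agent. The time of day at dissection is not given in the sources used here.

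Brown adipocytes store triglyceride in many small droplets and burn it in abundant mitochondria, where the uncoupling protein Ucp1 lets protons leak through the inner membrane so that respiration yields heat. In the mouse the interscapular depot arises before birth from mesenchymal progenitors close to the skeletal muscle lineage. Its cells leave the cell cycle, take up and make fatty acids, fill with lipid and glycogen, and build mitochondria ahead of the cold exposure of birth.

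Values are log2 expression, so a difference of 1 is a 2-fold change. Array values are given in the order of replicates 1, 2 and 3, changes are E16.5 minus E15.5 with their standard error (SE, n = 3 arrays per stage), and p-values come from limma, adjusted by the Benjamini-Hochberg method over all entries. The threshold was an adjusted p of 0.05, and "rose" and "fell" are used only for entries past it. Because each entry is read by its own probes, levels of different genes are not compared. In bulk tissue, fewer cells of a type and less RNA per cell cannot be told apart.

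Of 30915 entries, 6076 (19.7%) passed the threshold. Of these, 3461 rose (11.2% of all entries) and 2615 fell (8.46%). A change of at least 2-fold was reached by 438 that rose (1.42%) and 216 that fell (0.699%). E16.5 replicate 2 stood apart, with a median of 5.055 against 4.791 to 4.841 on the other 5 arrays of the comparison, and a median of 3.662 against 3.236 to 3.288 over olfactory and vomeronasal receptor entries, which mark the dim end. With that array the median entry moved by 0.10. After quantile normalization the median did not move (0.0), and 3621 entries rose (11.7%) while 3975 fell (12.9%). Without E16.5 replicate 2, 3581 rose (11.6%) and 4196 fell (13.6%). The 3 settings shared 3027 rises and 2543 falls, and no named gene was called in opposite directions in any 2 settings tried. The share of rises among called entries was 57.0% as deposited, 47.7% after quantile normalization, 46.2% after median centring (3466 rises and 4039 falls) and 46.0% without E16.5 replicate 2. Without E16.5 replicate 1 it was 66.0%, and without replicate 3 it was 65.6%. Median list changes below are as deposited and are to be read against 0.10. Second-day counts of lists and other groups are given as deposited, and after quantile normalization and without E16.5 replicate 2 where either differs. First-day counts are as deposited only.

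**Figure D1:**
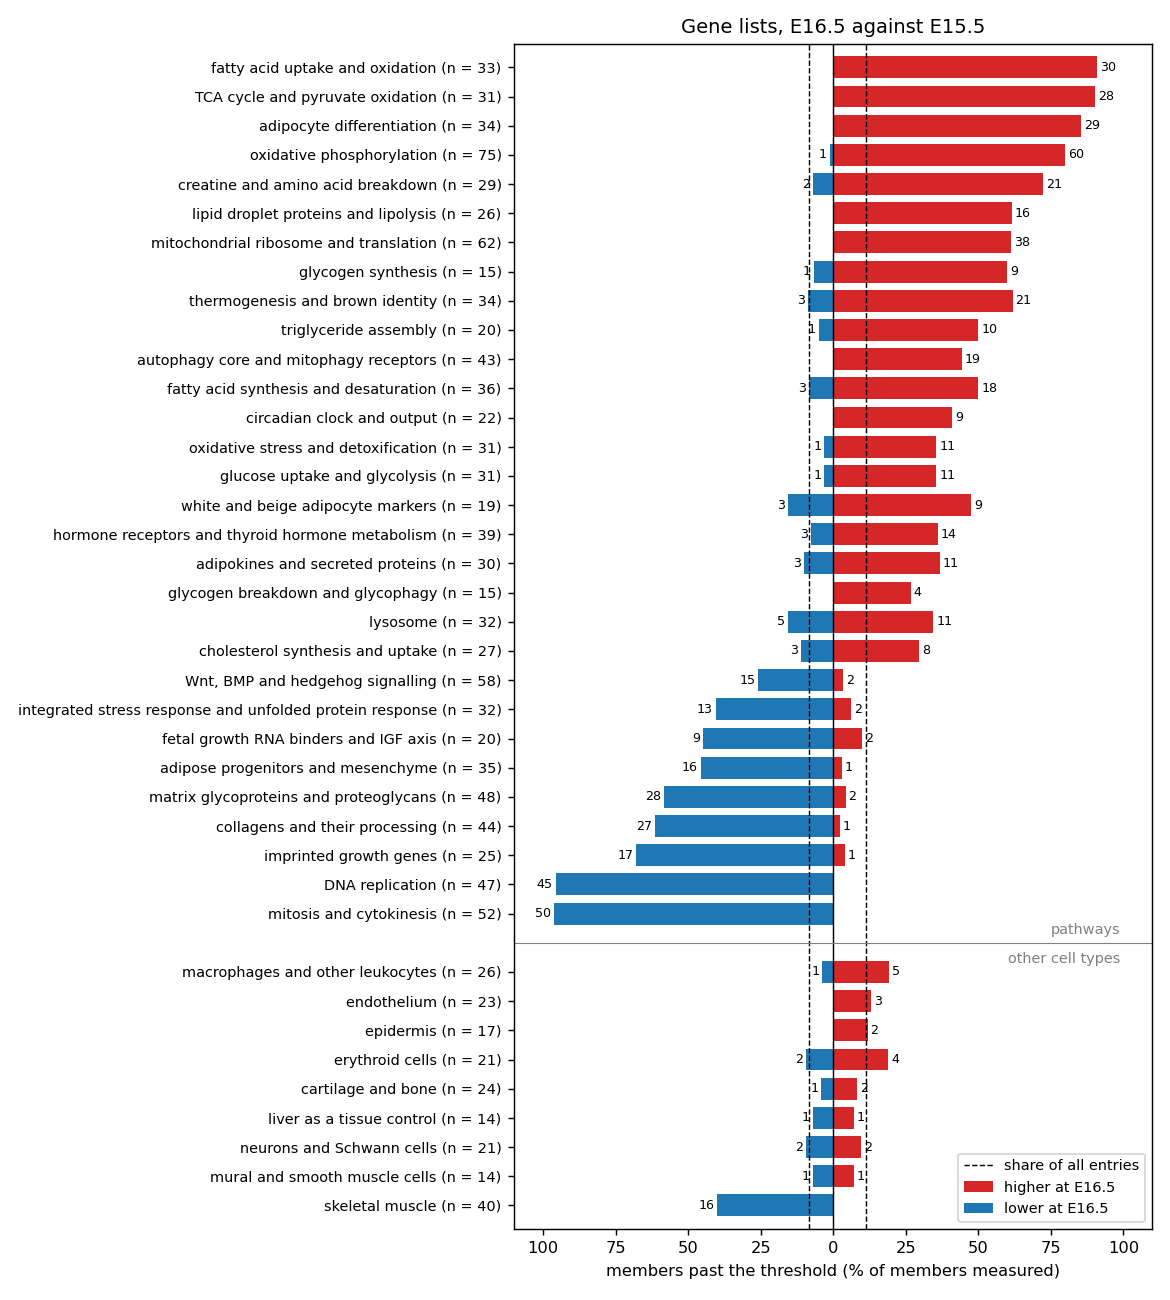
Share of the measured members of each gene list that rose (red, to the right) or fell (blue, to the left) from E15.5 to E16.5, in percent of members, with the number of members at each bar end. The dashed lines mark the share of all entries that rose (11.2%) and fell (8.46%). DNA replication and mitosis lie at the foot of the pathway block with 45 of 47 and 50 of 52 members down, and fatty acid oxidation lies at the top with 30 of 33 up.

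Several genes of heat production were among the largest rises of the comparison. Ucp1 read 5.55, 5.55 and 5.48 at E15.5 and 9.0, 9.37 and 9.29 at E16.5. Cox8b, a muscle and brown fat isoform of a cytochrome c oxidase subunit, read 8.14, 8.26 and 7.91, then 11.64, 11.79 and 11.54. Dio2, the deiodinase that makes active thyroid hormone inside the brown adipocyte, read 4.02, 4.12 and 4.31, then 7.02, 7.75 and 7.59. In all 3 genes every E16.5 array lay far above every E15.5 array, and the arrays of 1 stage lay close together. Ucp1 rose 13.0-fold (log2 change 3.70 ± 0.12, adjusted p = 9.23e-08), Cox8b 11.8-fold (3.56 ± 0.13, adjusted p = 1.52e-07) and Dio2 by a measured 3.31 ± 0.17 on the log2 scale (adjusted p = 1.21e-06). Dio2 started below 4.3769, the 95th percentile of the olfactory and vomeronasal receptor entries, so no fold is given for it. On the first day Ucp1 and Cox8b had moved by 1.06 and 0.90, and the second-day change exceeded the first-day change by 2.64 for Ucp1 and 2.66 for Cox8b (adjusted p = 0.000117 and 0.000128). Over all entries such a difference between the days was called upward for 2.79% and downward for 2.41%.

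**Figure D2:**
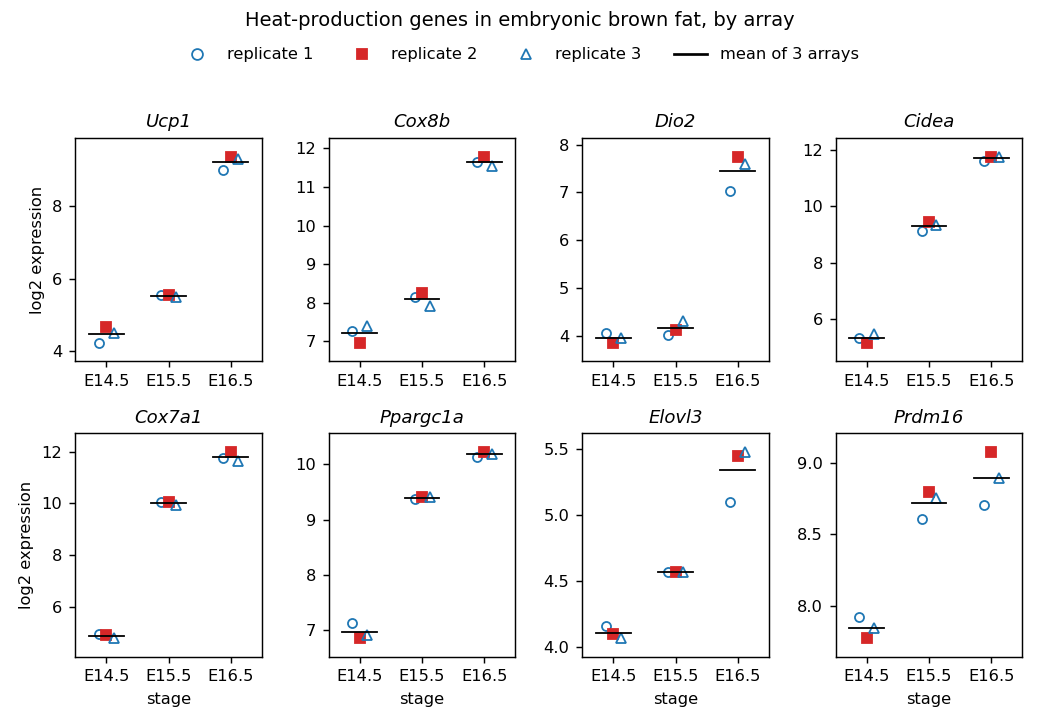
Log2 expression of 8 genes of heat production on each of the 9 arrays, by stage. Marker shape gives the replicate, replicate 2 is filled red, black bars are the mean of 3 arrays, and each panel has its own axis. Ucp1, Cox8b and Dio2 take most of their rise between E15.5 and E16.5, Cidea and Cox7a1 between E14.5 and E15.5, and the 2 later stages overlap for Prdm16.

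Other members of the thermogenesis list followed. Of 34 members, 21 rose and 3 fell in all 3 settings, with a median change of 0.78. Cidea, which enlarges lipid droplets, rose by 2.40 ± 0.11 and Cox7a1, another cytochrome c oxidase isoform, by 1.76 ± 0.10, both less than on the first day (3.98 and 5.13). Gpd2, the mitochondrial glycerol phosphate dehydrogenase, rose by 1.32 ± 0.08 and Pank1, which starts coenzyme A synthesis, by 1.44 ± 0.12. The very long chain elongase Elovl3 read 4.57, 4.57 and 4.57, then 5.1, 5.45 and 5.48, which is a rise of 0.78 ± 0.10 from the dim end of the scale. With equal E15.5 values as printed, its spread may be understated. Among the regulators, the coactivator Ppargc1a rose by 0.78 ± 0.09, the fatty acid sensor Ppara by 1.73 ± 0.16 and the receptor Esrra by 0.93 ± 0.09. The fate regulators Prdm16 (0.18 ± 0.11, adjusted p = 0.281) and Ebf2 (0.04 ± 0.08, adjusted p = 0.736) did not pass, and their arrays overlapped between the stages. The 3 members that fell were the ligand gene Bmp7 (-1.04 ± 0.11) and the transcription factors Zic1 (-0.63 ± 0.07) and Lhx8 (-0.65 ± 0.10), the last 2 used as markers of classical brown fat. Members that ran against their list are named after their values were seen, here and below.

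By the rule for named genes, which took function-bearing names with separated arrays that passed as deposited, after quantile normalization and without E16.5 replicate 2, the largest rise was that of Tmem45b, a membrane protein. It read 5.48, 5.56 and 5.62 and then 9.86, 9.99 and 9.85, so the stages lay far apart with little spread (20.3-fold, log2 change 4.34 ± 0.08, adjusted p = 1.34e-09). Cpn2, the regulatory subunit of carboxypeptidase N, rose by 3.23 ± 0.09 from values as dim as those of Dio2. The mitochondrial carrier Slc25a35 rose by 2.81 ± 0.10, against a first-day change of 0.13. The ether lipid cleaving Agmo rose by 2.54 ± 0.10 and Aspa, which frees acetate from N-acetylaspartate, by 2.5 ± 0.14. The interferon-inducible Ifi27 rose by 2.58 ± 0.08 and the calcium-binding Cib2 by 2.40 ± 0.13. Stfa2l1 rose by 2.46 ± 0.18, also from the dim end, but stefin genes are near-identical copies of each other, so their signals are uncertain.

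Genes of fatty acid use rose almost throughout. Of 33 members of the fatty acid uptake and oxidation list, 30 rose and 0 fell, with a median change of 0.71 (29 and 1 after quantile normalization and without E16.5 replicate 2). Slc25a20, the carrier that brings acylcarnitines into mitochondria, read 8.9, 9.11 and 8.99 and then 10.77, 11.02 and 10.83. The 2 groups were well separated, and the rise was 3.66-fold (log2 change 1.87 ± 0.10, adjusted p = 1.35e-06). Pdk4, the kinase that shuts pyruvate dehydrogenase when fat is burned, rose by 1.64 ± 0.09. Eci1, Etfdh and Decr1, enzymes of the beta-oxidation route and its electron transfer, rose by 1.17, 1.13 and 0.90. The lipoprotein lipase inhibitor Angptl4 rose by 1.27 ± 0.08, more than on the first day (0.18, adjusted p of the difference = 0.00139).

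The TCA cycle and the respiratory chain rose as a block of smaller changes. Of 31 genes of the TCA cycle and pyruvate oxidation, 28 rose and 0 fell, with a median of 0.60 (26 and 1 after quantile normalization, 28 and 1 without E16.5 replicate 2, 26 and 1 without E15.5 replicate 3). The succinyl-CoA ligase subunits Sucla2 and Suclg1 rose by 1.09 ± 0.09 and 0.90 ± 0.08, and the pyruvate dehydrogenase component Pdhx by 0.99 ± 0.10. The phosphatase Pdp2, which turns pyruvate dehydrogenase on, rose by 1.32 ± 0.13 and the kinase Pdk1, which turns it off, by 0.87 ± 0.08. Of 75 genes of oxidative phosphorylation, 60 rose and 1 fell, with a median of 0.52 (58 and 1 after quantile normalization, 62 and 1 without E16.5 replicate 2). On the first day 64 of them had risen, with a median of 0.75, when 2803 of all entries rose (9.07%), 3472 fell (11.2%) and the median entry moved by 0.03.

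Beyond Cox8b and Cox7a1, the smallest p-values among respiratory genes were those of the complex I genes Ndufa1 and Ndufv3, the complex III gene Uqcrfs1 and the ATP synthase gene Atp5e. Ndufa1 read 8.2, 8.41 and 8.27 and then 9.55, 9.36 and 9.47, a rise of 1.17 ± 0.09 in which no arrays overlapped. The other 3 rose by 1.11 ± 0.10, 1.02 ± 0.08 and 0.86 ± 0.08. The gene that fell was Atp5g1 (-0.48 ± 0.09), which encodes a copy of ATP synthase subunit c. Of 62 genes of the mitochondrial ribosome and its translation, 38 rose and 0 fell, with a median of 0.41 (40 and 0 after quantile normalization, 39 and 1 without E16.5 replicate 2). Their changes were modest, from 0.53 ± 0.07 for Mrpl9 to 0.86 ± 0.12 for Mrps34 among the 6 members with the smallest p-values.

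Many respiratory genes carry a site for the factor NRF1 at their start. The 250 bases before the start, from RefSeq on build GRCm38.p6, were searched on both strands for an NRF1-type motif. Of 68 windows of 63 oxidative phosphorylation genes, 12 (17.6%) held them, against 3.74% of 32851 windows of all genes. The motif stood in 10.4% of mitosis windows, 4.35% of replication windows and 2.94% of thermogenesis windows. The window of Atp5k, which encodes an ATP synthase subunit, is shown because it holds the motif, in capitals. It lies at chr5:108434400-108434649 on the minus strand. A match is a description of these letters, not a bound site.
Atp5k promoter: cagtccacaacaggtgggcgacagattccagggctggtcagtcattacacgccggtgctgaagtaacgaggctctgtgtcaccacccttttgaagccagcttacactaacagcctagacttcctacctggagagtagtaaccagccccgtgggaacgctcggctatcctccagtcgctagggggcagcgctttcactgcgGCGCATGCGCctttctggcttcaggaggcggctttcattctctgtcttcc

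The general adipocyte program continued to rise, more slowly than on the day before. Of 34 members of the differentiation list, 29 rose and 0 fell, with a median of 0.76 (28 and 0 in the other 2 settings), after a first day in which 32 rose with a median of 1.82. The second-day change was smaller than the first-day change for 20 members and larger for 0 (21 and 0 after quantile normalization, 21 and 2 without E16.5 replicate 2). The first number was 14 to 18 when any E14.5 or E15.5 array was left out. Adipogenin (Adig) read 7.08, 7.08 and 7.22 and then 9.55, 9.7 and 9.55, and the serine protease adipsin (Cfd) 6.53, 6.87 and 6.65, then 9.17, 9.04 and 9.05. Both were separated by several times the spread of their arrays, with rises of 2.47 ± 0.08 and 2.40 ± 0.10. Resistin (Retn) rose by 1.58 ± 0.10 and synuclein gamma (Sncg) by 1.21 ± 0.08. The core factors moved little: Pparg had 0.31 ± 0.08 (adjusted p = 0.0256) and Cebpa 0.44 ± 0.11 (adjusted p = 0.0137). The call of Pparg ended after quantile normalization (0.15, adjusted p = 0.156) and without E15.5 replicate 1, 2 or 3 (0.32, 0.30 and 0.30), and that of Cebpa without E15.5 replicate 1 or 3 (0.44 and 0.44).

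Of 36 genes of fatty acid synthesis and desaturation, 18 rose and 3 fell, with a median of 0.30. On the first day 11 had risen and 10 had fallen, with a median of 0.03, equal to that of all entries. The second-day change was the higher for 10 members and the lower for 2 (11 and 3 after quantile normalization, 13 and 3 without E16.5 replicate 2). The first number was 3 to 5 when any E14.5 or E15.5 array was left out. After quantile normalization 17 rose and 6 fell, and without E16.5 replicate 2 the counts were 19 and 5. The stearoyl-CoA desaturase Scd1, which makes oleate, read 8.16, 7.79 and 8.2 and then 10.83, 11.08 and 10.96. Its arrays at E16.5 all lay above those at E15.5, a 7.5-fold rise (log2 change 2.91 ± 0.12, adjusted p = 2.61e-07) that followed a first-day fall of 1.42 on the log2 scale (the days differed by 4.32, adjusted p = 4.25e-06). Acacb, the acetyl-CoA carboxylase of the mitochondrial surface, rose by 2.61 ± 0.15, while its cytosolic partner Acaca had 0.06 ± 0.12 (adjusted p = 0.758) with overlapping arrays.

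Thrsp, a lipogenic regulator, read 7.54, 7.75 and 7.75 and then 10.08, 9.21 and 10.27. The stages did not overlap, but replicate 2 lay lower than the other E16.5 arrays, so that the rise of 2.17 ± 0.22 was 2.5 without it. The acetate-activating Acss2 rose by 1.11 ± 0.12, the lipid droplet acyltransferase Pnpla3 by 1.36 ± 0.13, the citrate lyase Acly by 0.51 ± 0.08 and Insig1, which holds back SREBP activation, by 0.61 ± 0.08. The regulator Srebf1 rose by 0.61 ± 0.10, less than on the first day (1.48), and the carbohydrate-sensing Mlxipl had 0.17 ± 0.12 (adjusted p = 0.351) after a first-day rise of 2.66. Fasn, the fatty acid synthase, had 0.34 ± 0.09 (adjusted p = 0.024), a call that ended after quantile normalization (0.25, adjusted p = 0.0696) and without E15.5 replicate 3 (0.26) or E16.5 replicate 3 (0.30). The elongases Elovl4 (-0.82 ± 0.13) and Elovl2 (-0.62 ± 0.09) fell.

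Of 20 triglyceride assembly genes, 10 rose and 1 fell, with a median of 0.47 (10 and 2 after quantile normalization, 11 and 2 without E16.5 replicate 2). Pck1, which feeds glycerol phosphate from pyruvate, read 8.13, 8.61 and 8.39 and then 10.98, 10.99 and 11.05, a rise of 2.63 ± 0.13 with wide separation. Glycerol kinase (Gk) rose by 1.28 ± 0.12, the acyltransferases Agpat3 and Agpat2 by 1.03 ± 0.08 and 0.99 ± 0.08, the phosphatidate phosphatase Lpin1 by 1.12 ± 0.11, and Dgat1 and Dgat2, which add the last acyl chain, by 1.11 ± 0.08 and 0.71 ± 0.08. Lpin2 fell (-0.39 ± 0.09).

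Of 26 droplet and lipolysis genes, 16 rose and 0 fell, with a median of 0.39 (16 and 0 after quantile normalization, 18 and 0 without E16.5 replicate 2, and 1 fell without E16.5 replicate 1). Plin5, which docks droplets to mitochondria, read 7.44, 7.96 and 7.84 and then 9.9, 9.93 and 9.96. Its E16.5 arrays were tight and all higher, a rise of 2.18 ± 0.13. Cideb rose by 1.42 ± 0.10, more than on the first day (0.36, adjusted p of the difference = 0.00522), and the monoglyceride lipase Mgll by 1.30 ± 0.08. Plin1 and Cidec rose by 1.11 ± 0.09 and 1.09 ± 0.08 after first-day rises of 4.36 and 5.11. The cholesterol genes did not share a direction. Of 27, 8 rose and 3 fell with a median of 0.0, and the counts were 9 and 7 after quantile normalization, 7 and 10 without E16.5 replicate 2, and 5 rose without E15.5 replicate 3. The exporter Abcg1 rose by 1.27 ± 0.10, and the synthesis genes Fdft1 and Hmgcs1 by 0.67 ± 0.08 and 0.65 ± 0.10. The esterifying enzyme Soat1 (-0.68 ± 0.08) fell.

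Of 15 genes of glycogen synthesis, 9 rose and 1 fell in all 3 settings, with a median of 0.46. The fall, that of Pgm2l1 (-0.26), ended when any 1 array other than E16.5 replicate 2 was left out. Without E15.5 replicate 1, 7 rose. Ppp1r3c, a subunit that brings protein phosphatase 1 to glycogen, read 7.95, 8.25 and 8.15 and then 9.77, 10.06 and 9.99. The branching enzyme Gbe1 read 8.36, 8.41 and 8.4 and then 10.02, 10.34 and 9.97. Both were clearly separated, with rises of 1.82 ± 0.10 (adjusted p = 2.30e-06) and 1.72 ± 0.10 (adjusted p = 3.35e-06). Another targeting subunit, Ppp1r3b, rose by 1.46 ± 0.11, the primer protein Gyg by 0.65 ± 0.09, Ugp2, which makes UDP-glucose, by 0.49 ± 0.09, and the synthase Gys1 by 0.46 ± 0.07. The liver isoform Gys2 rose by 0.46 ± 0.10 from values of 4.01 on each E15.5 array, at the dim end, so its spread may be understated. Ppp1r3a (0.17), Ppp1r3e (0.09), Ppp1r3f (-0.03), Ppp1r3g (0.06) and Pgm1 (-0.02) did not pass.

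Of 15 breakdown and glycophagy genes, 4 rose and 0 fell in all 3 settings, with a median of 0.16. They included the glycogen phosphatase Epm2a (1.21 ± 0.10), the glycophagy receptor Stbd1 (0.61 ± 0.10) and the liver phosphorylase Pygl (0.58 ± 0.09). The brain phosphorylase Pygb read 10.39, 10.42 and 10.39 and then 10.36, 10.47 and 10.37, and the lysosomal glucosidase Gaa 9.56, 9.45 and 9.46, then 9.44, 9.59 and 9.5. Their arrays overlapped, with changes of 0.0 ± 0.08 (adjusted p = 0.996) and 0.02 ± 0.08 (adjusted p = 0.885). The muscle phosphorylase Pygm had 0.12 ± 0.11 (adjusted p = 0.466), the kinase subunits Phka1, Phka2, Phkb, Phkg1 and Phkg2 ranged from -0.32 to 0.18 without passing, and Gabarapl1 (0.32) and Nhlrc1 (0.22) did not pass either. The skeletal muscle list, which shares several of these genes' tissues, moved on the same day, as described below, and its part in these values was not tested.

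In glucose uptake and glycolysis, 11 of 31 genes rose and 1 fell, with a median of 0.15 (11 and 2 in the other 2 settings, and 7 rose without E15.5 replicate 3). The insulin-responsive transporter Slc2a4 read 8.96, 9.14 and 9.2 and then 10.17, 10.42 and 10.21, a rise of 1.17 ± 0.10 without overlap. Hexokinase 2 (Hk2) rose by 0.99 ± 0.09 after a first-day change of -0.29, and the days differed (adjusted p = 0.00145). Pfkfb1 and Pfkfb3, which set the level of fructose 2,6-bisphosphate, rose by 1.12 ± 0.09 and 0.76 ± 0.11. The lactate dehydrogenase subunit Ldhb rose by 0.74 ± 0.08 and the monocarboxylate transporter Slc16a1 by 0.47 ± 0.09.

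Of 29 genes of creatine metabolism and amino acid breakdown, 21 rose and 2 fell, with a median of 0.69 (21 and 2 after quantile normalization, 22 and 2 without E16.5 replicate 2). Mccc1, of leucine breakdown, read 8.6, 8.81 and 8.71 and then 9.89, 10.18 and 9.94, fully separated, with a rise of 1.30 ± 0.10 (adjusted p = 1.58e-05). Hibch and Aldh6a1, of valine breakdown, rose by 1.12 ± 0.08 and 1.05 ± 0.09, the ketoacid dehydrogenase subunit Bckdha by 1.08 ± 0.10, and the propionyl-CoA carboxylase subunits Pccb and Pcca by 0.99 ± 0.08 and 0.98 ± 0.08. The cytosolic aminotransferase Bcat1 (-0.85 ± 0.11) and the creatine transporter Slc6a8 (-0.74 ± 0.07) fell. Of 31 oxidative stress genes, 11 rose and 1 fell, with a median of 0.23 (12 and 2 after quantile normalization, 13 and 4 without E16.5 replicate 2). Gsta4, which clears lipid aldehydes, rose by 1.52 ± 0.11, the secreted superoxide dismutase Sod3 by 1.07 ± 0.08, the peroxiredoxin Prdx5 by 1.02 ± 0.09 and the metal-binding Mt1 by 0.87 ± 0.08.

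Of 39 members of the hormone receptor and thyroid hormone list, which set the response of brown fat to hormones and nerves, 14 rose, 3 fell and the others did not pass, with a median of 0.24 (17 and 3 after quantile normalization, 15 and 4 without E16.5 replicate 2). The thyroid hormone receptor Thrb read 5.7, 5.85 and 5.84 and then 6.88, 7.22 and 7.06, a rise of 1.26 ± 0.11 without overlap, beside the rise of Dio2 given above. The adrenergic receptor Adra1a rose by 1.22 ± 0.09 and the brown fat beta-receptor Adrb3 by 0.77 ± 0.15. The FGF21 co-receptor Klb rose by 0.99 ± 0.10 after 4.09 on the first day, the corticotropin receptor Mc2r by 0.88 ± 0.08 and the retinoic acid receptor Rarb by 0.89 ± 0.12. The 3 that fell were the FGF receptors Fgfr4 (-0.58 ± 0.11), Fgfr2 (-0.56 ± 0.09) and Fgfr1 (-0.38 ± 0.08).

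Among 30 adipokines and secreted proteins, 11 rose and 3 fell, with a median of 0.23 (11 and 7 after quantile normalization, 11 and 5 without E16.5 replicate 2). Nrg4, a brown fat secreted ligand, read 5.5, 5.5 and 5.5 and then 6.88, 7.16 and 7.19, a rise of 1.58 ± 0.10 with no overlap. Its E15.5 values were equal as printed, so its spread may be understated. Angptl8 rose by 1.42 ± 0.10 and Nampt, the enzyme of NAD recycling, by 0.84 ± 0.10, both after larger first-day rises (2.62 and 1.57). Leptin (Lep) rose by 0.85 ± 0.13. Adiponectin (Adipoq) had 0.38 ± 0.11 (adjusted p = 0.0366), which no longer passed without E15.5 replicate 1, 2 or 3 (0.36, 0.42 and 0.37), E14.5 replicate 1 (0.38), or E16.5 replicate 1 or 2 (0.40 and 0.31). C1qtnf3 (-1.48 ± 0.24) and Nov (-0.76 ± 0.11) fell. Of 19 white and beige markers, 9 rose and 3 fell (8 and 3 after quantile normalization, and 5 rose without E15.5 replicate 3). The ion channel P2rx5 rose by 2.34 ± 0.11 and the amino acid transporter Slc36a2 by 1.54 ± 0.12, which are both also read as brown fat surface markers. Tmem26 (-1.67 ± 0.11), Cited1 (-0.85 ± 0.11) and Hoxc8 (-0.47 ± 0.09), used as beige or white markers, fell.

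In the circadian list, 9 of 22 genes rose and 0 fell, with a median of 0.23 (9 and 0 after quantile normalization, 10 and 0 without E16.5 replicate 2, and 1 fell without E16.5 replicate 3). The repressor Bhlhe40 read 7.74, 7.93 and 7.99 and then 8.71, 9.14 and 8.82. Its stages did not overlap, and it rose by 1.01 ± 0.13 (adjusted p = 2.90e-04). Arntl and its partner Npas2 rose by 0.68 ± 0.09 and 0.63 ± 0.11, the output factor Dbp by 0.68 ± 0.11 and the repressor Nr1d1 by 0.56 ± 0.09. Sampling time was not given, so stage and time of day cannot be told apart for these genes.

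Of 43 autophagy and mitophagy genes, 19 rose and 0 fell, with a median of 0.30 (23 and 1 after quantile normalization, 21 and 1 without E16.5 replicate 2). Optn, a receptor that links damaged mitochondria to autophagosomes, read 6.93, 7.08 and 7.0 and then 8.15, 8.65 and 8.34, a rise of 1.38 ± 0.12 without overlap. The mitophagy receptor Bnip3 rose by 0.93 ± 0.10, the kinase Pink1 by 0.82 ± 0.11, and the conjugation genes Atg10 and Atg4d by 0.89 ± 0.08 and 0.89 ± 0.12. Map1lc3b, whose protein coats the autophagosome, rose by 0.40 ± 0.08. The starting kinase Ulk1 (0.04 ± 0.08, adjusted p = 0.72) and the cargo receptor Sqstm1 (-0.02 ± 0.08, adjusted p = 0.859) did not pass, with overlapping arrays. The 32 lysosome genes split, with 11 up and 5 down (8 and 7 after quantile normalization, 10 and 7 without E16.5 replicate 2). Leaving out any 1 of the E15.5 arrays left 7 up and 2 down. Falls numbered 3 without E14.5 replicate 3 or E16.5 replicate 1 and 2 without E16.5 replicate 3. The protease genes Ctsd (0.78 ± 0.10) and Ctsb (0.48 ± 0.09) rose, as did the lipase Lipa (0.48 ± 0.09) and the proton pump gene Atp6v1h (0.58 ± 0.10). The glucuronidase Gusb (-0.60 ± 0.08) and the collagen-degrading Ctsk (-0.53 ± 0.09) fell.

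Cell division genes fell nearly without exception. Of 47 DNA replication genes, 45 fell and 0 rose, with a median of -0.67, and 46 and 45 fell in the other 2 settings. Of 52 genes of mitosis and cytokinesis, 50 fell and 0 rose, with a median of -0.66, and 50 and 51 fell in the other 2 settings. Leaving out any 1 array left at least 39 and 46 of them down. The replication initiator Mcm10 read 8.48, 8.4 and 8.37 and then 6.99, 7.28 and 7.03, and the licensing factor Cdt1 10.04, 10.08 and 10.11, then 9.06, 8.65 and 8.9. No E16.5 array came near an E15.5 array in either gene. Mcm10 fell by 1.32 ± 0.09 on the log2 scale, which is 2.5-fold (adjusted p = 7.27e-06), and Cdt1 by 1.21 ± 0.10, which is 2.31-fold (adjusted p = 2.18e-05).

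**Figure D3:**
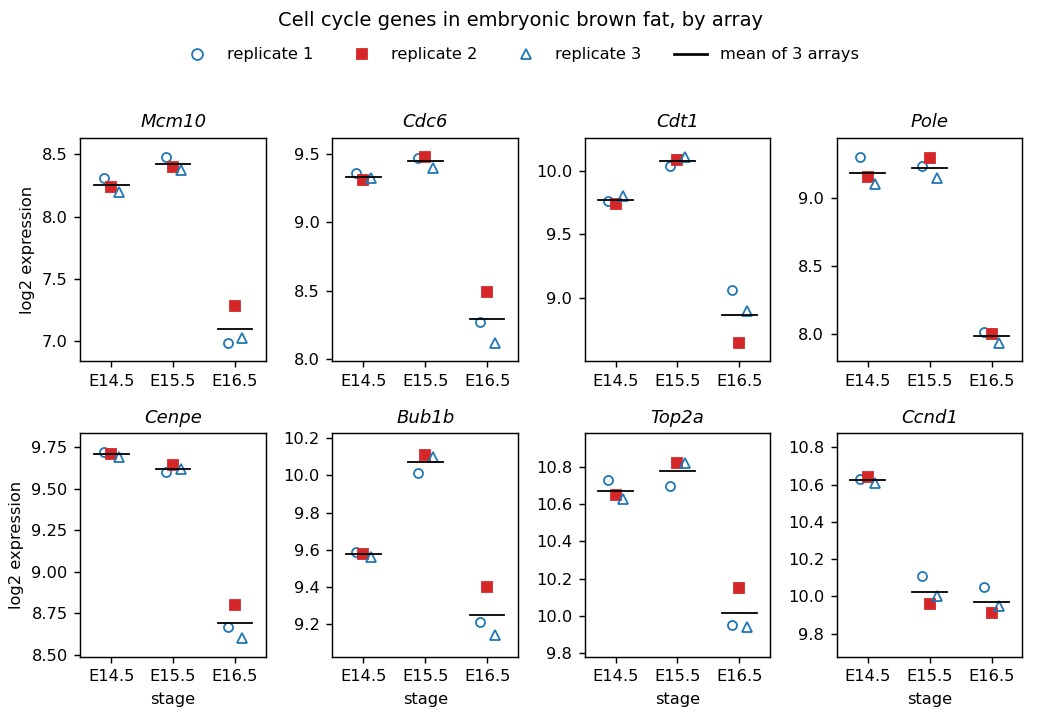
Log2 expression of 8 cell cycle genes on each of the 9 arrays, by stage, with replicate 2 filled red and black bars for the mean of 3 arrays; each panel has its own axis. Mcm10, Cdc6, Cdt1, Pole, Cenpe, Bub1b and Top2a are lower on every E16.5 array than on any earlier array, while Ccnd1 overlaps at the 2 later stages.

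The fall reached each step of the cycle that the lists cover. The polymerase subunit Pole fell by 1.23 ± 0.08, the licensing ATPase Cdc6 by 1.16 ± 0.10, and the helicase subunits Mcm3 and Mcm2 by 0.99 ± 0.08 and 0.95 ± 0.08. Among mitotic genes, the condensin subunit Ncapg2 fell by 0.99 ± 0.10, the kinetochore motor Cenpe by 0.93 ± 0.08, the checkpoint kinase Bub1b by 0.82 ± 0.09, Birc5 of the passenger complex by 0.80 ± 0.08 and the phosphatase Cdc25c by 0.76 ± 0.09. The proliferation marker Mki67 read 11.17, 11.11 and 11.05 and then 10.38, 10.46 and 10.44, a fall of 0.68 ± 0.08 with well separated arrays. The repair genes Fancd2 and Xrcc2 fell by 1.14 ± 0.08 and 1.20 ± 0.08. Cyclin D1 (Ccnd1), which carries growth signals into the cycle, had -0.05 ± 0.08 (adjusted p = 0.644) with overlapping arrays, after a first-day fall of 0.60.

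On the first day, when 9.07% of all entries rose and 11.2% fell, 11 replication genes rose and 1 fell, with a median of 0.20, and 13 mitotic genes rose and 0 fell, with a median of 0.20. The test of the difference between the days was past the threshold, downward, for 37 replication genes (44 after quantile normalization, 46 without E16.5 replicate 2) and 40 mitotic genes (51 and 51). These counts rest on all arrays of E15.5. Without E15.5 replicate 1, 2 or 3 they were 19, 17 and 18 for replication and 13, 13 and 12 for mitosis, and for replication 23 without E14.5 replicate 2. Both days share the E15.5 arrays, so their changes are not independent. Histone genes moved in the same direction: of 65 with Hist names, 24 fell and 2 rose, with a median of -0.26 (37 and 2 in the other 2 settings). The falls numbered 16 and 17 without E15.5 replicates 1 and 3, and 19 without E16.5 replicate 1 or 3. The rises numbered 4 without E16.5 replicate 1 and 1 without E15.5 replicate 2. Hist1h2bj fell by 1.71 ± 0.18 and Hist1h2ag by 1.15 ± 0.11. Histone copies are near-identical, so the signal of a single copy is uncertain.

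Promoters of these 2 lists were searched for motifs of the cell cycle. E2F-type letters (TTTCCCGC, TTTGGCGC or TTTCGCGC) stood in 9 of 46 replication windows (19.6%) against 1.53% of all windows. The CCAAT box (CCAAT) stood in 33 of 48 mitosis windows (68.8%) and 58.7% of replication windows against 33.8% of all. The CHR-type letters TTTGAA stood in 14 mitosis windows (29.2%) against 16% of all. All were sought on both strands over 250 bases before the start, and a window with several motifs counts for each. Cdc6 is shown for the E2F-type letters and Top2a, the topoisomerase of chromosome separation, for 6 CCAAT boxes beside 2 CHR-type matches, all in capitals as read on the gene's strand. Cdc6 lies at chr11:98907901-98908150 on the plus strand and Top2a at chr11:99024190-99024439 on the minus strand. Top2a itself fell by 0.76 ± 0.09.
Cdc6 promoter: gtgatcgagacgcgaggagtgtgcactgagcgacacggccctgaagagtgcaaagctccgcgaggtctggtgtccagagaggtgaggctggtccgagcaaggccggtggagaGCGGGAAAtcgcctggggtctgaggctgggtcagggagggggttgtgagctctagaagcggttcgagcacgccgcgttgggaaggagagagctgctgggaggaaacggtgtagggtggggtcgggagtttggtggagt
Top2a promoter: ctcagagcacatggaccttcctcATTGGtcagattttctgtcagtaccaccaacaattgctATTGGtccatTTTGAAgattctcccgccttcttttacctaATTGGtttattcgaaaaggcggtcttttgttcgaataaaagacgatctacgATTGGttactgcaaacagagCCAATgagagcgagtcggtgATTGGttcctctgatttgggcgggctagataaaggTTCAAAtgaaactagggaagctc

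Of 32 genes of the integrated stress and unfolded protein responses, 13 fell and 2 rose, with a median of -0.13 (16 and 2 after quantile normalization, 14 and 2 without E16.5 replicate 2). The large neutral amino acid transporter Slc7a5 read 10.63, 10.53 and 10.59 and then 9.4, 9.26 and 9.4. The cationic amino acid transporter Slc7a1 read 8.7, 8.63 and 8.56 and then 7.46, 7.5 and 7.45. Every E16.5 array lay below every E15.5 array by far more than the arrays of a stage differed, with falls of 1.23 ± 0.08 (adjusted p = 4.17e-06) and 1.16 ± 0.08 (adjusted p = 7.00e-06). Mthfd2 of mitochondrial folate metabolism fell by 0.98 ± 0.09, the serine synthesis gene Psat1 by 0.92 ± 0.11, the proline synthesis gene Aldh18a1 by 0.91 ± 0.11 and the glutathione-degrading Chac1 by 0.92 ± 0.11. Slc7a5, Slc7a1, Psat1 and Aldh18a1 had not passed on the first day (-0.01, 0.10, 0.21 and -0.01), while Mthfd2 and Chac1 had risen by 0.46 and 1.05. The 2 that rose were the stress genes Ddit4 (0.76 ± 0.11) and Ddit3 (0.75 ± 0.13).

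**Figure D4:**
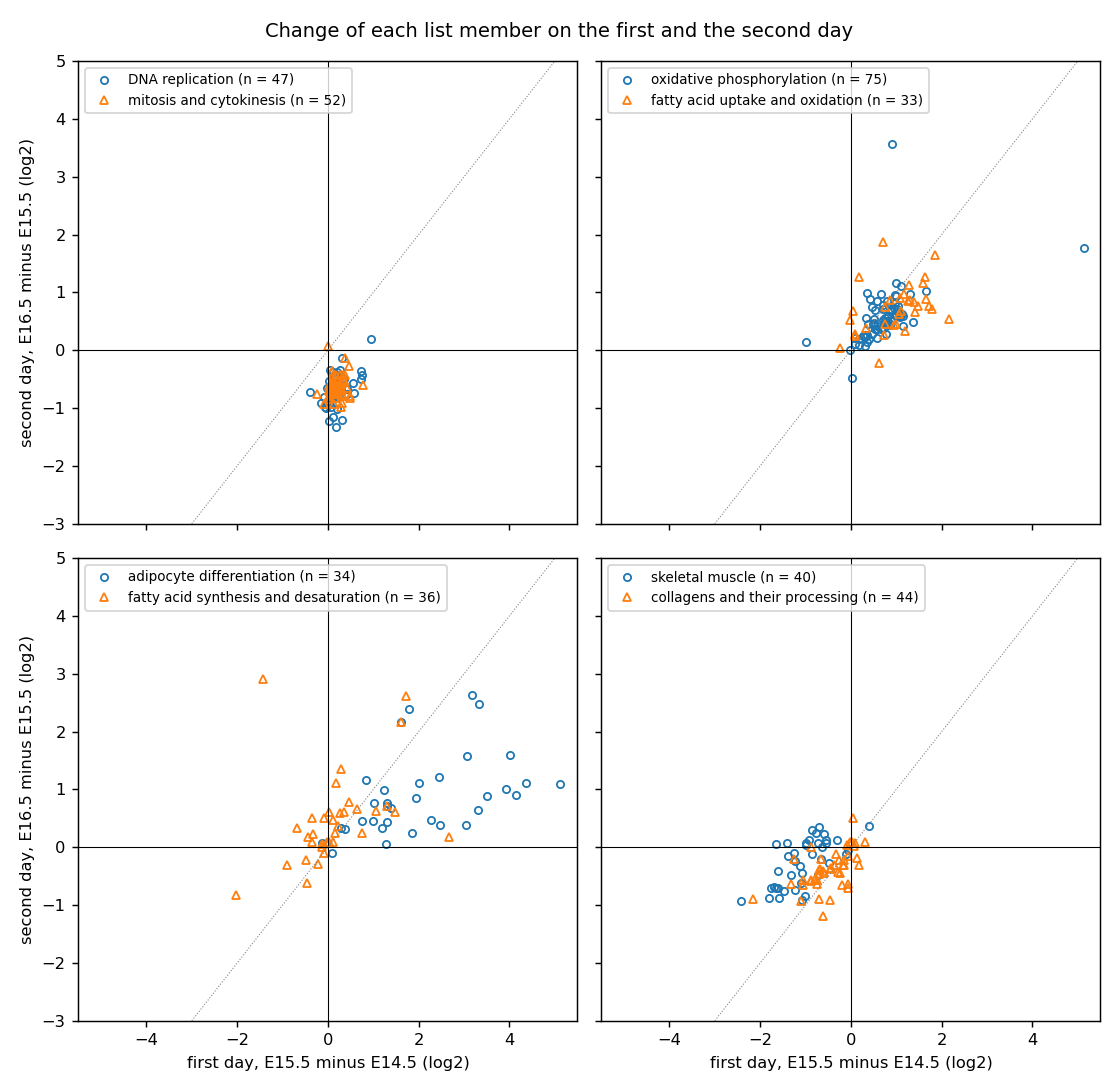
Log2 change of each list member on the second day (vertical axis, E16.5 minus E15.5) against the first day (horizontal axis, E15.5 minus E14.5), for 8 lists in 4 panels; the dotted line marks equal change. Of the replication and mitosis genes, 45 of 47 and 50 of 52 fell on the second day. Of the 75 respiratory genes, 64 rose on the first day and 60 on the second, and adipocyte differentiation genes lie mostly below the dotted line. The axes share the E15.5 arrays.

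Of 44 collagen and collagen-processing genes, 27 fell and 1 rose, with a median of -0.38 (31 and 1 in the other 2 settings). Plod2, a lysyl hydroxylase of collagen cross-linking, read 9.45, 9.43 and 9.43 and then 8.35, 8.33 and 8.05, a fall of 1.19 ± 0.09 without overlap. Col26a1 and the procollagen protease Bmp1 fell by 0.90 ± 0.11 and 0.89 ± 0.10, Col15a1 by 0.70 ± 0.08, and the fibrillar collagens Col1a1 and Col3a1 by 0.46 ± 0.08 and 0.39 ± 0.08. The basement membrane chain Col4a5 rose (0.50 ± 0.09). Of 48 glycoproteins and proteoglycans, 28 fell and 2 rose, with a median of -0.34 (34 and 3 after quantile normalization, 31 and 4 without E16.5 replicate 2). Has2, which makes hyaluronan, read 9.54, 9.48 and 9.27 and then 7.86, 7.44 and 7.38, a fall of 1.87 ± 0.14 (adjusted p = 8.42e-06). The elastic fibre genes Fbn2 and Fbln2 fell by 1.42 ± 0.10 and 1.28 ± 0.08, Efemp1 by 0.94 ± 0.09 and the hyaluronan-binding versican (Vcan) by 0.90 ± 0.08. Ltbp2 (0.79 ± 0.09) and Tnxb (0.40 ± 0.08) rose.

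Of 35 progenitor and mesenchyme genes, 16 fell and 1 rose, with a median of -0.21 (18 and 0 in the other 2 settings). Sox9, a progenitor and cartilage factor, read 9.16, 8.94 and 8.79 and then 7.26, 6.96 and 7.24, and fell by 1.81 ± 0.11 with the stages far apart. Gli3, a hedgehog effector, fell by 1.20 ± 0.10, the mesenchymal factors Six2 and Osr2 by 1.0 ± 0.09 and 0.93 ± 0.10, the precursor receptor Pdgfra by 0.94 ± 0.09 and Prrx1 by 0.68 ± 0.08. Of 58 Wnt, BMP and hedgehog genes, 15 fell and 2 rose, with a median of -0.12 (16 and 2 after quantile normalization, 17 and 2 without E16.5 replicate 2), and 35 had fallen on the first day. The Wnt antagonists Sfrp2 and Sfrp1 fell by 1.23 ± 0.08 and 1.19 ± 0.11 and Dkk2 by 1.07 ± 0.12. The agonist Rspo3 fell by 0.79 ± 0.09 and the hedgehog transducer Smo by 0.75 ± 0.08. The ligands Wnt4 (1.07 ± 0.15) and Gdf5 (0.97 ± 0.13) rose.

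Other falls named by the rule belong to no list or to bone. The phosphate-regulating peptidase Phex read 7.8, 7.78 and 7.9 and then 5.99, 6.24 and 5.35, a fall of 1.97 ± 0.19 in which the E16.5 arrays were spread but all lower. Alkaline phosphatase (Alpl) fell by 1.65 ± 0.10 after no called change on the first day (0.09). The retinoic acid binder Crabp1 fell by 1.65 ± 0.14, the secreted Egfl6 by 1.71 ± 0.13, the ephrin receptor Ephb2 by 1.43 ± 0.09, Tmem178 by 1.74 ± 0.08 and Fndc3c1 by 1.56 ± 0.12.

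Of 25 imprinted growth genes, 17 fell and 1 rose, with a median of -0.61 (19 and 1 in the other 2 settings). Peg3 read 11.71, 11.66 and 11.62 and then 10.93, 10.85 and 10.95, a fall of 0.75 ± 0.08 without overlap. Neuronatin (Nnat) fell by 0.86 ± 0.10 after a first-day rise of 0.99 (adjusted p of the difference = 0.000215). Impact, Peg10 and Plagl1 fell by 0.75 ± 0.09, 0.74 ± 0.08 and 0.68 ± 0.07, and the preadipocyte factor Dlk1 by 0.61 ± 0.11. Of 20 fetal RNA binders and IGF genes, 9 fell and 2 rose, with a median of -0.20 (11 and 2 in the other 2 settings). The RNA binder Igf2bp1 read 8.15, 8.14 and 8.14 and then 6.86, 6.83 and 6.48, a fall of 1.42 ± 0.10, and Igf2bp2 and Igf2bp3 fell by 1.21 ± 0.10 and 0.63 ± 0.10. The receptors Igf1r and Igf2r fell by 0.54 ± 0.08 and 0.52 ± 0.08. Igf2 itself had -0.21 ± 0.07 (adjusted p = 0.0719) as deposited, and passed after quantile normalization (-0.30, adjusted p = 0.00443) and without E16.5 replicate 2 (-0.22, adjusted p = 0.0181). Igfbp7 (0.43 ± 0.08) and Insr (0.33 ± 0.07) rose.

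The imprinted interval from Dlk1 to Dio3 holds a maternally expressed chain of noncoding RNAs with Meg3, Rian, Mirg and many small RNAs. Of its 76 entries, placed by their order in the RefSeq gene table, 42 fell and 0 rose, with a median of -0.75 (47 after quantile normalization, 43 without E16.5 replicate 2). On the first day 68 of them had fallen, with a median of -1.71. Some miRNA entries were already dim at E15.5, below the 4.3769 used for Dio2. Examples are Mir376a (3.26, 3.04 and 3.41) and Mir376c (2.96, 2.92 and 3.23). A further fall could hardly be read in such entries, so the counts and medians do not show whether the decline slowed. By kind, 22 of 51 miRNA, 12 of 15 snoRNA, 5 of 6 lncRNA and 2 of 3 protein-coding entries fell on the second day. In the same order the counts were 26, 13, 5 and 2 after quantile normalization. Without E16.5 replicate 2 they were 20, 14, 5 and 3. Meg3 read 7.51, 7.53 and 7.98 and then 6.73, 6.68 and 6.55, a fall of 1.02 ± 0.12. Rian, Mirg and Rtl1 fell by 0.75 ± 0.10, 0.71 ± 0.13 and 0.84 ± 0.12, and these were chosen after their values were seen. E15.5 replicate 3 stood above the other E15.5 arrays here, with a median over the interval of 6.34 against 5.56 and 5.71, and E16.5 arrays had 4.94, 5.10 and 4.86. Leaving out any 1 array left 38 to 44 entries down.

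**Figure D5:**
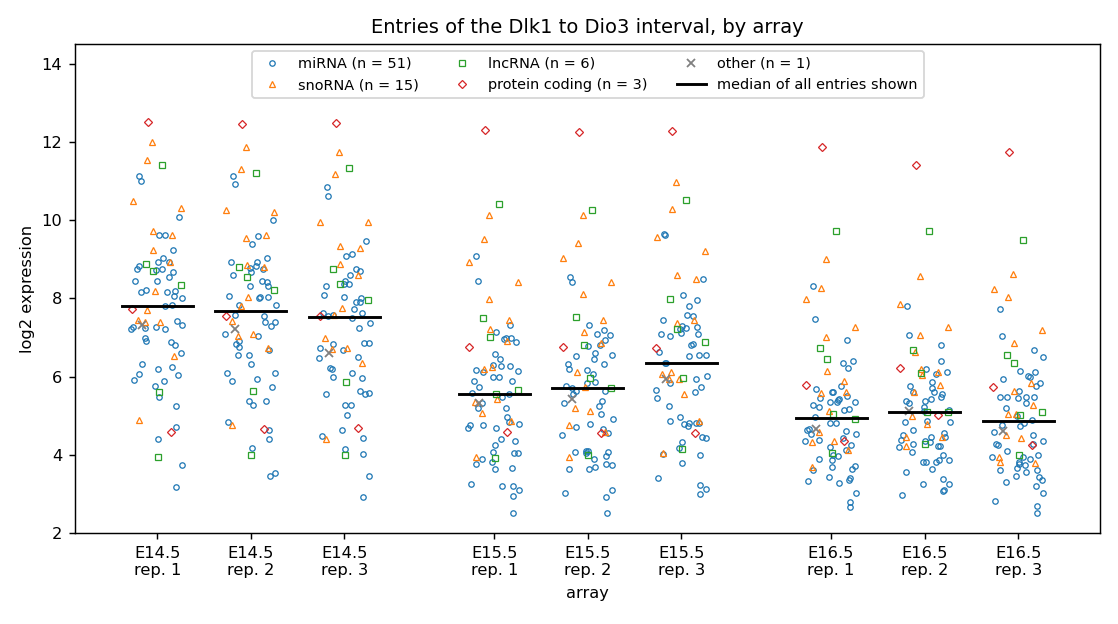
Log2 expression of the 76 entries between Dlk1 and Dio3 on each of the 9 arrays, by kind of RNA, with black bars for the median of all 76. Medians run from 7.52 to 7.81 at E14.5, 5.56 to 6.34 at E15.5 and 4.86 to 5.10 at E16.5, and E15.5 replicate 3 lies above the other arrays of its stage.

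Most miRNA entries named here for their falls lie in this interval. They read hairpin genes, not mature forms. The mature sequences of 4 of them are shown with their seeds (bases 2 to 8) in capitals, from RefSeq on build GRCm38.p6, because the seed decides which transcripts a miRNA can pair with. None of those shown shared a seed with another. Mir377 lies at chr12:109740515-109740574, Mir300 at chr12:109724318-109724384, Mir341 at chr12:109611521-109611576 and Mir382 at chr12:109733781-109733840, all on the plus strand. Mir22, at chr11:75463734-75463793 on the plus strand, is shown for the opposite direction.
miR-377-5p: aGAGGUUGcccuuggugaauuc
miR-377-3p: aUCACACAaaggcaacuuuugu
miR-300-5p: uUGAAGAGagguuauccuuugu
miR-300-3p: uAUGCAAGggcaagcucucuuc
miR-341-5p: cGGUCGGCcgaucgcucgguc
miR-341-3p: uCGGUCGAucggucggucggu
miR-382-5p: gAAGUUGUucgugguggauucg
miR-382-3p: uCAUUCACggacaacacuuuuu
miR-22-5p: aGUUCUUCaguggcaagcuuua
miR-22-3p: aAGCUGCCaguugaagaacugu

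Mir377 read 5.99, 6.08 and 7.25 and then 4.83, 4.32 and 3.95. Mir300 read 5.89, 6.33 and 7.1, then 4.54, 4.84 and 4.25, and Mir382 6.58, 6.78 and 7.3, then 5.6, 5.38 and 5.64. In all 3, E15.5 replicate 3 was the highest array and the stages did not overlap. Mir377 fell by 2.07 ± 0.31 (adjusted p = 0.000785), Mir300 by 1.90 ± 0.30 (adjusted p = 0.001), Mir341 by 1.54 ± 0.24 (adjusted p = 0.00105) and Mir382 by 1.35 ± 0.18 (adjusted p = 0.000327), each after a first-day fall of 1.79 or more. Mir323, Mir453 and Mir493 of the same interval fell by 1.62, 1.64 and 1.51. Outside the interval, 17 of 507 miRNA entries fell and 14 rose (35 and 13 after quantile normalization, 27 and 17 without E16.5 replicate 2), shares below those of all entries. The falls numbered 8 without E15.5 replicate 3, and the rises 5, 6, 30 and 31 without E15.5 replicate 2, E15.5 replicate 3, E16.5 replicate 1 and E16.5 replicate 3. Leaving out replicate 1 of E14.5 or of E15.5 gave 9 rises. Mir22 read 5.66, 5.72 and 5.68 and then 6.41, 7.07 and 6.73, a rise of 1.05 ± 0.14 (adjusted p = 0.000297) with no overlap, and Mir1949 fell by 1.90 ± 0.19.

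Long RNAs that carry small nucleolar RNAs in their introns fell outside this interval as well, and these were chosen after values were seen. Of 9 such host genes, 7 fell and 0 rose (8 in the other 2 settings). Gas5 read 7.19, 7.27 and 7.35 and then 5.62, 5.4 and 5.36, with tight arrays, and fell by 1.81 ± 0.10 on the log2 scale, which is 3.5-fold (adjusted p = 2.27e-06). Snhg5 fell by 1.26 ± 0.12, Zfas1, listed as 1500012F01Rik, by 1.05 ± 0.16 and Snhg7, Snhg12 and Snhg1 by 0.66 ± 0.10, 0.65 ± 0.12 and 0.62 ± 0.10. Of 820 snoRNA entries outside the interval, 59 fell (7.2%) and 27 rose (3.3%), both below the shares of all entries (8.46% and 11.2%). The counts were 84 and 15 after quantile normalization and 84 and 20 without E16.5 replicate 2. Those rises numbered 61 without E16.5 replicate 1, 59 without E16.5 replicate 3, and 6 to 17 when any E14.5 or E15.5 array was left out. The mitochondrial tRNA gene mt-Tn fell by 1.86 ± 0.29, with E16.5 values of 6.22, 6.92 and 5.52 that were widely spread.

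Lists of markers of other cell types were read by their counts and by a summed level. A summed level is the log2 of the members' added linear values on an array. It was taken from the deposited values only, with the shifted E16.5 replicate 2 among them, and was not repeated after quantile normalization. Of 40 skeletal muscle genes, 16 fell and 0 rose, with a median of -0.17, and the summed level ran from 13.94 to 14.22 at E15.5 and from 13.74 to 14.11 at E16.5, so it overlapped. The counts were 16 and 0 after quantile normalization, 16 and 3 without E16.5 replicate 2, and 10 fell without E15.5 replicate 1 or 3. The myogenic factors Myog and Myod1 fell by 0.88 ± 0.11 and 0.71 ± 0.12, Mybph by 0.93 ± 0.11 and the slow myosin Myh7 by 0.84 ± 0.10. Myh3, the embryonic myosin, read 9.49, 9.47 and 9.49 and then 8.94, 8.21 and 9.07, with E16.5 replicate 2 lowest, so its fall of 0.74 ± 0.18 was 0.47 without that array. On the first day 35 of the 40 had fallen, with a median of -1.04, and the second-day change was the less negative for 20. That count was 16 after quantile normalization and 32 without E16.5 replicate 2, and 4 to 13 without 1 of the arrays of E14.5 or E15.5. The part of these markers in the results above was not tested.

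In red blood cell genes the embryonic globins Hbb-y and Hba-x were the 2 that fell. Hbb-y, the embryonic beta-like globin, read 8.32, 8.29 and 8.32 and then 5.63, 6.05 and 5.23, a 6.36-fold fall without overlap (2.67 ± 0.17 on the log2 scale, adjusted p = 4.13e-06), and the zeta globin Hba-x fell by 0.57 ± 0.08. Hbb-bs and Hbb-bt, the adult beta globins, rose by 0.89 ± 0.15 and 0.57 ± 0.12, although their near-identical sequence makes the split between them uncertain. Tfrc, the transferrin receptor, rose by 0.60 ± 0.09. Of 21 erythroid genes, 4 rose and 2 fell (5 and 2 after quantile normalization), and the summed level went from 13.34 to 13.37 at E15.5 to 13.52 to 13.63 at E16.5.

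Of 23 endothelial genes, 3 rose and 0 fell (4 and 0 after quantile normalization), with Gpihbp1, which carries lipoprotein lipase to the capillary wall, at 0.75 ± 0.09 and Cldn5 at 0.62 ± 0.12. Their summed level was 14.06 to 14.09 and then 14.13 to 14.28. Of 26 leukocyte genes, 5 rose and 1 fell (5 and 5 after quantile normalization, 7 and 5 without E16.5 replicate 2). The falls numbered 2 without E16.5 replicate 1. The granulocyte genes S100a8, Ly6g and S100a9 rose by 1.09 ± 0.15, 0.77 ± 0.10 and 0.70 ± 0.11 from dim levels, the mast cell protease Mcpt4 by 1.34 ± 0.24, and the macrophage receptor Mrc1 fell by 0.41 ± 0.09. Another macrophage receptor, Cd163, rose by 0.53, a call that ended without E15.5 replicate 1, 2 or 3. The summed level was 12.63 to 12.73 and then 12.49 to 12.71, which overlapped. Of 24 cartilage and bone genes, 2 rose (Sox5 1.17 ± 0.14 and Sox6 0.92 ± 0.11) and Alpl fell (3 and 3 after quantile normalization, 2 and 2 without E16.5 replicate 2, and 4 rose without E16.5 replicate 1), with a summed level of 10.17 to 10.24 and then 9.85 to 10.02. The shares that rose were 13.0% of endothelial, 19.2% of leukocyte and 8.3% of cartilage and bone genes, against 11.2% of all entries. The shares that fell were 0.0%, 3.8% and 4.2%, against 8.46%. These shares are as deposited. Over all entries 12.9% fell after quantile normalization and 13.6% without E16.5 replicate 2. In both of those settings 5 of 26 leukocyte genes (19.2%) fell, so their place below the share of all entries did not hold.

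Of 14 mural and smooth muscle genes 1 rose and 1 fell, the latter Cnn1 (-0.65 ± 0.14). The counts were 1 and 3 after quantile normalization, 3 and 2 without E16.5 replicate 2, and none rose without any E14.5 array or E15.5 replicate 2 or 3, with summed levels of 12.65 to 12.73 and 12.69 to 12.82. Of 21 neuron and Schwann cell genes 2 rose and 2 fell (1 and 3 without E16.5 replicate 2, 3 and 1 without E16.5 replicate 3, and 1 rose without any other array), with S100b at 1.24 ± 0.20, a gene brown adipocytes also express, and Gap43 at -0.49 ± 0.10, and summed levels of 10.15 to 10.27 and 10.19 to 10.48. Of 17 epidermal genes 2 rose and 0 fell (2 and 1 without E16.5 replicate 2, 1 and 0 without any E15.5 array), with Grhl3 at 0.55 ± 0.10, and summed levels of 8.82 to 8.87 and 8.97 to 9.23. Of 14 liver genes 1 rose and 1 fell, with Apoa2 at 0.64 ± 0.12, and summed levels of 7.97 to 8.04 and 8.09 to 8.34. These liver and epidermal sums are those of dim entries. Alb and Afp read 3.58 to 4.30 on the 6 arrays, where the olfactory receptor medians of these arrays ran from 3.236 to 3.662. The shares that rose were 7.1% of mural, 9.5% of neuron, 11.8% of epidermal and 7.1% of liver genes, against 11.2% of all entries. The shares that fell were 7.1%, 9.5%, 0.0% and 7.1%, against 8.46%. These shares are as deposited, and the mural counts above moved with the setting. Over all entries 11.7% rose and 12.9% fell after quantile normalization, and 11.6% and 13.6% without E16.5 replicate 2.

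Small calls among the members named for running against their list, or for being few, ended in fits without 1 array, and their changes without it are given here. Fads2 (-0.31) ended without E15.5 replicate 1 or 3 or E16.5 replicate 3 (-0.26, -0.32 and -0.28), Slc2a1 (-0.40) without E15.5 replicate 1 or 3 (-0.39 and -0.39), and Gpx7 (-0.35) without E15.5 replicate 1 or 2 (-0.29 and -0.36). Apoa1 (-0.41) ended without E15.5 replicate 3 (-0.35), Snhg6 (-0.45) without E15.5 replicate 1 (-0.39), Alas2 (0.45) without E15.5 replicate 1 or 2 (0.40 and 0.45), Perp (0.43) without E15.5 replicate 1, 2 or 3 (0.44, 0.41 and 0.44) and Cd163 (0.53) without the same arrays (0.50, 0.58 and 0.50). Pgm2l1 (-0.26), Magel2 (0.27), Ly6a (0.48), Metrn (-0.39), Hexa (-0.26), Gla (-0.36), Cd63 (-0.30), Sox18 (0.28), Mcam (0.28) and Fabp7 (0.31) ended without any of 4 or more different arrays, with changes of the same sign each time. Erbb3 (-0.36) ended without E15.5 replicate 1 or 3 or E16.5 replicate 3 (-0.34, -0.33 and -0.31). All calls of this paragraph except those of Snhg6 and Alas2 also ended in the fit of the 6 arrays alone.

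Some genes reversed between the days, each day past the threshold and the difference too. By these criteria 94 of 30915 entries fell and then rose, and 173 rose and then fell. These counts are as deposited only. The test of the difference, on which they rest, called 1610 entries as deposited and 2626 after quantile normalization. It called 3361 without E16.5 replicate 2 and 606 without E15.5 replicate 2. Beside Scd1, the first kind included the cysteine dioxygenase Cdo1 (-0.45, then 1.76 ± 0.09), the lipoprotein receptor Vldlr (-0.66, then 1.32 ± 0.10) and the sulfotransferase Chst15 (-0.34, then 1.06 ± 0.10). Vldlr read 7.85, 7.9 and 7.85 and then 9.06, 9.3 and 9.21, with no overlap. The second kind included the stem cell factor Sall4 (0.35, then -1.27 ± 0.09), the glutamate receptor subunit Grik4 (0.64, then -1.18 ± 0.09), Mtss1l (0.48, then -1.17 ± 0.07), Xrcc2 (0.33, then -1.20 ± 0.08) and Hist1h2ag (0.79, then -1.15 ± 0.11). A high or low E15.5 value moves both days in opposite directions, so these pairs of changes are not independent.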

How the data were processed

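The deposited table holds log2 expression values that the authors made from MoGene-2_0-st arrays; the submitters' processing notes name RMA and Partek 7.0. The annotation, the genome build, and how probe sets became 1 value per symbol are not given in the sources used here. The deposited numbers ran from 2.34 to 13.15, and 5702 entries had 1 value on 3 or more arrays, so their spread may be understated. Of 30915 symbols, 26677 were current in the RefSeq table of GRCm38.p6 and 1035 were older names. No detection calls were used, the number of arrays limits the precision, and near-identical genes may share probes.

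limma 3.58.1 in R 4.3.3 (lmFit, eBayes) was fitted to 9 arrays by stage alone, with 6 residual and 4.59 prior degrees of freedom. Contrasts were E16.5 minus E15.5, E15.5 minus E14.5 and their difference, with two-sided p-values adjusted by the Benjamini-Hochberg method over 30915 entries. The code was tested on simulated data. Quantile normalization, median centring, each array left out, the 6 arrays alone, a replicate block, leaving out dim entries, a trended robust prior and array weights were tried.

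The 39 gene lists held 1245 measured members, 12 matched under another symbol. Members and lists were chosen with earlier results of these data known. Named genes were the 15 largest rises and 15 largest falls with separated arrays that passed as deposited, after quantile normalization and without E16.5 replicate 2, up to 6 members of each list by p (all members of lists with 15 or fewer), a panel, and the genes with opposite days. Genes outside this rule, among them small RNA host genes, interval transcripts and members that ran against their list, were chosen after their values were seen. Promoter and miRNA sequences are from RefSeq. Some results, a few of them for genes that this rule names, are not reported here.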

Additional observations from a re-analysis of the deposited data

Results flagged for a closer look

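The genes below are listed because their change from E15.5 to E16.5 differed from their change from E14.5 to E15.5 in sign, with both changes and the difference itself past the threshold of the limma fit. The values are second-day minus first-day change on the log2 scale. Among genes that fell and then rose, the difference was 4.32 for Scd1, 2.21 for Cdo1, 1.98 for Vldlr, 1.89 for S100b and 1.40 for Chst15. Among genes that rose and then fell, it was -1.95 for Hist1h2ag, -1.82 for Grik4, -1.65 for Mtss1l, -1.62 for Sall4 and -1.53 for Xrcc2. Both days use the same E15.5 arrays.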

How the results depend on the processing

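Of 319 named genes past the threshold, 4 lost their call after quantile normalization, 5 without E16.5 replicate 2, 9 after median centring and 32 in at least 1 alternative, while 19 gained one. None of the calls changed sign. The number of entries that fell was 2615 as deposited, 3975 after quantile normalization, 4039 after median centring, 4029 after quantile normalization without E16.5 replicate 2 and 3929 with array weights. The number whose days differed was 1610 as deposited, 2626 after quantile normalization, 3474 after quantile normalization without E16.5 replicate 2 and 3825 with array weights. With only the 6 arrays of E15.5 and E16.5 in the fit, 2514 entries rose and 1908 fell. Of these calls, 4404 were shared in direction with the 6076 of the main fit, which also draws its spread from the E14.5 arrays. Leaving out 1 array gave 2477 to 4405 rises, 1899 to 4196 falls (4196 without E16.5 replicate 2), 376 to 521 and 191 to 264 changes of at least 2-fold up and down, and 606 to 3361 entries whose days differed. The lowest counts came without an E15.5 array (721, 606 and 669 without replicates 1, 2 and 3) and the highest without E16.5 replicate 2. Without E14.5 replicates 2 and 3 they were 988 and 1041. Of 78 list counts, 13 moved by more than 1.5 times after quantile normalization, 16 after median centring and 19 without E16.5 replicate 2. The array weight of E16.5 replicate 2 was 0.085. Replicate numbers were checked as pairs: the deviations of same-numbered arrays at E15.5 and E16.5 correlated at 0.089, 0.045 and 0.107. Each deviation is from a mean of 3 arrays, which at E16.5 includes the shifted replicate 2, so these values cannot decide whether the numbers pair the samples. With a replicate block 3340 entries rose, 2477 fell and 1364 had days that differed. The pools give 3 arrays per stage, dim entries have no detection calls, and time of day was not known.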
